A study of Mus musculus with 3 samples.

Results

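The genes described here are the nuclear genes for proteins of the mitochondrial ribosome, taken as every protein-coding row of the deposited expression table whose symbol starts with Mrpl or Mrps followed by a digit. The rule found 77 genes, 48 with an Mrpl and 29 with an Mrps symbol, among 22026 protein-coding genes and 35275 genes in all, and it left out 4 pseudogenes of the same name pattern. Of the 77, 76 stood at 1 FPKM or more (fragments per kilobase, corrected for library size) in at least 1 library. The remaining gene, Mrpl53, was listed at 0 in all 3 libraries. The libraries are polyA RNA of whole liver from male C57BL/6J mice, 1 library per group, from animals aged 10 weeks at the start of the diets. Control mice ate normal chow. NASH (nonalcoholic steatohepatitis) mice ate a western diet and drank liquid fructose, for 24 weeks by the label. TH-treated NASH mice, labelled with the same diet, had it for 16 weeks and then drank the thyroid hormones T3 (35 ng/g) and T4 (7 ng/g) in 15% fructose water for 8 weeks. The labels give no number of animals behind a library and no fructose percentage for the untreated NASH mice. With 1 library per group no difference below has a replicate check, no test was run, and NASH, control and TH-treated NASH name these libraries.

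Mitochondria keep a small genome that encodes subunits of the respiratory chain and of ATP synthase, and they translate its messages on their own ribosomes. The RNA of these ribosomes comes from the mitochondrial genome, whereas all of their proteins are encoded in the nucleus, made in the cytosol and imported. Many of these proteins descend from those of bacterial ribosomes, and others were added during the evolution of mitochondria. Thyroid hormone is known to raise mitochondrial content and respiration in liver.

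The libraries held 54576236 (control), 47009255 (NASH) and 38303410 (TH-treated NASH) fragments on genes, recovered as whole numbers from the deposited values. A member that passed 1 FPKM rested on at least 255 fragments in every library, with medians of 1598, 1504 and 1280. Cell type markers differed between the libraries, several lists by more than most members did. The median log2 ratio of the 10 hepatocyte markers was -0.59 in NASH against control and 0.39 in TH-treated NASH against NASH. The same medians were 1.39 and -0.01 for 10 macrophage markers and 1.18 and -0.50 for 10 stellate cell and fibroblast markers. They were 0.25 and 0.05 for 8 endothelial markers. They were 0.52 and -0.67 for the 4 of 6 cholangiocyte markers that reached 1 FPKM, and 0.81 and 0.19 for 5 of 10 lymphocyte markers. Summed over each list, hepatocyte markers stood at 57478, 39083 and 39462 FPKM, macrophage markers at 109.5, 333 and 447 FPKM, and stellate cell markers at 77.2, 165 and 112 FPKM. In bulk tissue, fewer cells of a type and less RNA per cell cannot be told apart, and the part of cell makeup in the ratios below was not tested.

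The members spanned a wide range of levels that was similar in all 3 libraries. From the lowest over the median to the highest member, control levels were 2.26, 17.6 and 109 FPKM, NASH levels 2.59, 18.1 and 111 FPKM, and levels with hormone 2.75, 22.2 and 151 FPKM, so every one of the 76 lay above 1 FPKM in every library. Mrpl52, a large-subunit protein found in mitochondria and not in bacteria, was the most abundant by mean FPKM, at 109 FPKM in control, 111 in NASH and 150 in the TH-treated library (called the library with hormone where values are listed). Values listed together below follow this order. Mrpl12, the counterpart of the bacterial stalk protein that recruits translation factors, came next at 89.6, 96.5 and 151 FPKM. Both were highest in TH-treated NASH, and in that library their levels were nearly equal. Mrpl14, a conserved core protein of the large subunit, followed at 85.9, 81.8 and 69.5 FPKM and had the opposite order. It overlaps Tmem63b on the other strand by 584 bases, and that gene stood at 24.1, 21.6 and 18.1 FPKM, in the same order as Mrpl14. The next 5 were Mrpl20, Mrpl30, Mrpl34, Mrpl42 and Mrps21, with 47.5 to 61.1 FPKM in control and NASH and 71.0 to 94.9 FPKM in TH-treated NASH. At the lower end stood Mrps22 (5.29, 4.89 and 4.17 FPKM), Mrpl47 (4.12, 3.86 and 4.42 FPKM), Mrps25 (2.26, 2.68 and 3.50 FPKM) and Mrpl19 (2.70, 2.59 and 2.75 FPKM). The large-subunit members outnumbered the small-subunit ones among the most abundant, with Mrps21 the only Mrps symbol among the first 8. For Mrpl53, no fragment in a gene of 710 bases allows a level of up to 0.0774, 0.0899 and 0.110 FPKM in the same order of libraries (3 counts per library). Its whole span of 845 bases lies within that of Ccdc142 on the same strand, and how reads shared by 2 genes were counted is not stated.

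**Figure D1:**
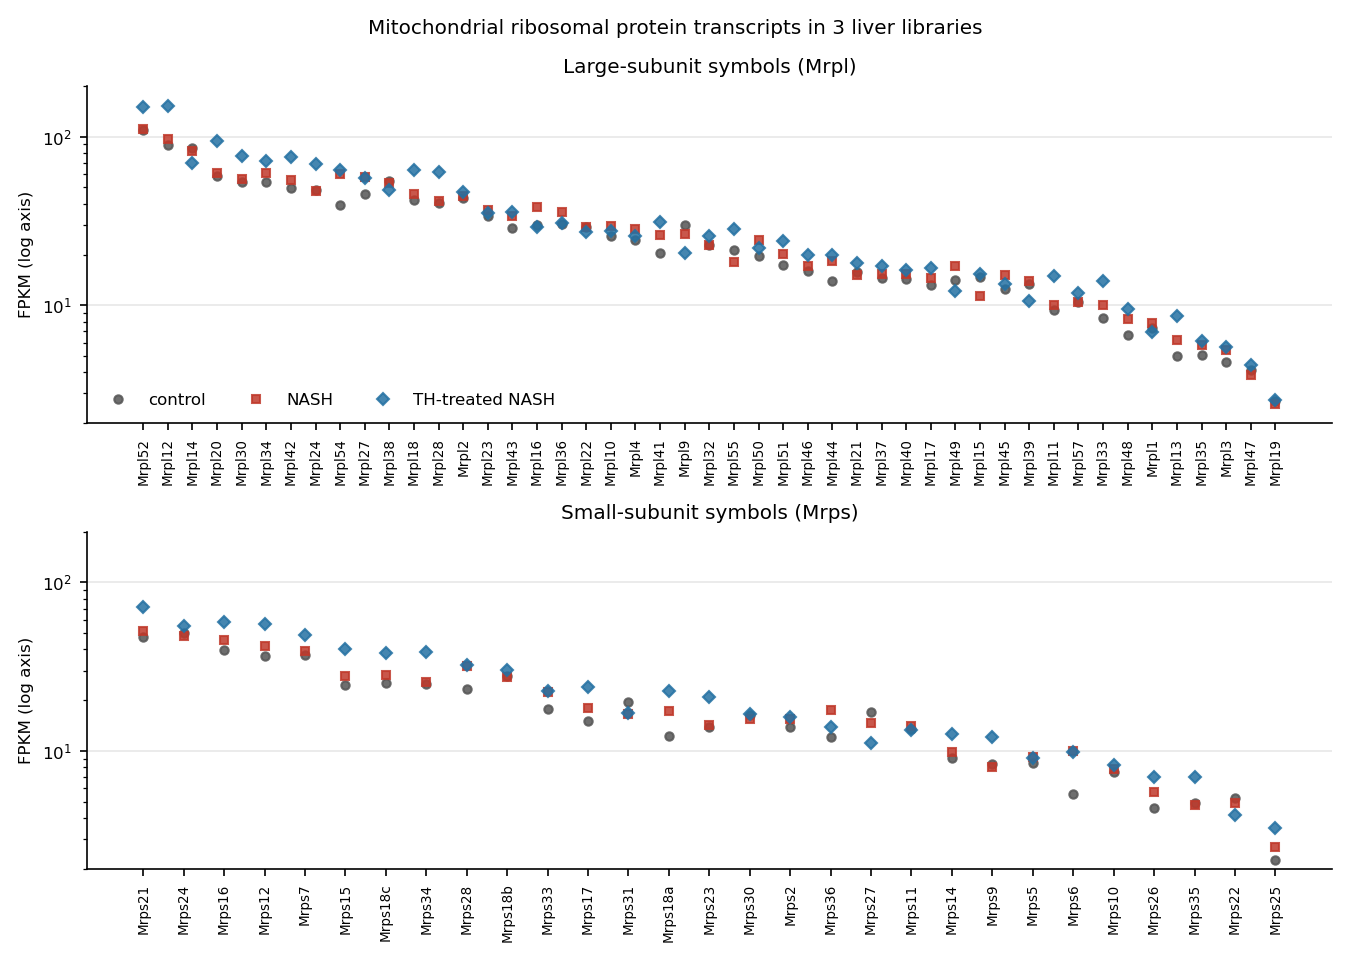
FPKM on a log axis of the 76 members at 1 FPKM or more, ordered by mean FPKM, with large-subunit symbols above and small-subunit symbols below; each point is 1 library, so there are no error bars. Mrpl52 and Mrpl12 lead at 150 and 151 FPKM in TH-treated NASH (diamonds), and Mrps25 and Mrpl19 stand lowest.

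NASH was first set against control, which asks what the diet did to these transcripts. The members together took 0.246% of fragments in control (0.244 to 0.247, exact 95% binomial interval) and 0.266% in NASH (0.264 to 0.267), a ratio of 1.08 (1.07 to 1.09). All intervals here and below hold for counting error only, since 1 library per group gives no spread between animals. They also take fragments as independent, which PCR copies are not. On the log2(FPKM + 1) scale, which understates the fold of low genes, the median member ratio was 0.11, beside 0.13 over the 10953 protein-coding genes that passed 1 FPKM. That sign depended on the scaling, as the median was -0.10 with median-of-ratios scaling and -0.06 with TMM scaling, which placed the median of all protein-coding genes at -0.05 and -0.02. Relative to all protein-coding genes, the members differed by -0.02 as deposited and by -0.04 under both scalings. Members were counted as higher where FPKM + 1 was at least 25% above that of the other library, and as lower at the inverse, at least 20% below. By that measure 9 of 76 members (11.8%) were higher in NASH, against 24.8% of protein-coding genes, and 1 (1.32%) was lower, against 5.66%. The balance turned with the scaling, to 2 higher and 5 lower with median-of-ratios scaling, where 14.1% of protein-coding genes were higher and 15.1% lower. It was 3 and 5 with TMM scaling (15.5% and 12.6% of genes) and with length centring (15.6% and 10.7% of genes). At 1.5-fold, 2 members were higher, against 10.3% of genes, and none was lower, against 2.15%. The share of members past each fold was below that of genes in general in both directions.

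Of the 2 members past 1.5-fold, Mrps6, a conserved small-subunit protein, stood at 5.52 FPKM in control, 9.96 in NASH and 9.81 with hormone, which made it 1.80-fold higher in NASH than in control (95% counting interval 1.54 to 2.12). It rested on the fewest fragments of any member, 255, 396 and 318, and its span overlaps that of Slc5a3 on the same strand for 29152 bases. Slc5a3 itself stood at 0.908, 0.706 and 0.471 FPKM, highest in control. Mrpl54, a large-subunit protein absent from bacteria, stood at 39.4, 59.8 and 63.5 FPKM, 1.52-fold higher in NASH (1.41 to 1.63). Both diet libraries were thus high for these genes and the control library low.

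Next came Mrps36, Mrps18a, Mrps28, Mrpl44, Mrpl16 and Mrpl41, 1.28-fold to 1.44-fold higher in NASH. Mrps36 carries the small-subunit name but is known as a component of the 2-oxoglutarate dehydrogenase complex of the citric acid cycle. Its levels were 12.05 FPKM in control, 17.4 in NASH and 13.8 with hormone, so NASH alone was high. Mrpl16, a conserved protein of the large subunit, was also highest in NASH, at 29.8, 38.3 and 29.2 FPKM. Mrpl44, which resembles an RNase III enzyme, stood at 14.0, 18.2 and 19.9 FPKM, and Mrpl41 at 20.3, 26.0 and 31.4 FPKM, both lowest in control. Mrps28, a small-subunit protein, stood at 23.2, 32.1 and 32.3 FPKM, level in the 2 diet libraries.

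The only member at least 20% lower in NASH was Mrpl15, a conserved large-subunit protein, at 14.6 FPKM in control, 11.4 in NASH and 15.4 with hormone (1.28-fold lower in NASH, 1.22 to 1.35). Mrpl55, Mrps31, Mrps27 and Mrpl9 were 1.13-fold to 1.18-fold lower, and their intervals did not reach 1. The other 3 of the 8 lowest ratios belonged to Mrps22, Mrpl47 and Mrpl14, whose log2 differences of -0.10, -0.08 and -0.07 had counting intervals that included no difference. Between the scalings tried, 38 of 76 members had a ratio whose sign differed in this comparison, and 38 kept their sign.

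TH-treated NASH was next set against NASH, both labelled with the diet. The labels do not show that diet time and fructose drink were equal in these libraries. The part of diet time and drink in the ratios cannot be told apart from that of the hormones and was not tested. The members took 0.310% of fragments in TH-treated NASH (0.308 to 0.312) against 0.266% in NASH, a ratio of 1.17 (1.16 to 1.18). Their median log2 ratio was 0.16, where that of all protein-coding genes was -0.04, and 55 of 76 (72.4%) lay above 0 against 45.8% of genes. By 25% or more, 25 members (32.9%) were higher, against 17.6% of protein-coding genes, and 5 (6.58%) were at least 20% lower, against 21.5%. At 1.5-fold, 3 members (3.95%) were higher, against 7.29%, and none was lower, against 8.51%. The members thus held more moderate ratios above 0 than genes in general, and fewer large ones. The median stayed above 0 under each scaling (0.06 with TPM scaling, where the median of all genes moved to -0.13, to 0.19 with median-of-ratios scaling), and its distance from that of all genes was 0.19 to 0.20 in each. The distance was 0.14 with a pseudocount of 5 FPKM and 0.09 after centring on genes of similar length. The counting interval lay wholly past 25% higher for 20 members and wholly past 20% lower for 1. Such intervals were not counted over all protein-coding genes, so no background share stands beside these 2 counts.

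Mrpl12 had the highest ratio, at 89.6 FPKM in control, 96.5 in NASH and 151 with hormone (1.57-fold higher with hormone, 1.52 to 1.62). It lies on the strand opposite to the lincRNA Gm16755, whose span shares 2244 bases with it and which stood at 11.6, 14.0 and 26.9 FPKM. The sources used here do not give the strand setting of the counting, so reads of the pair may not be separated. Mrpl20, a conserved protein of the large subunit, followed at 58.3, 60.6 and 94.9 FPKM (1.57-fold, 1.48 to 1.65) and overlaps no other gene. Mrpl55 stood at 21.3, 18.1 and 28.3 FPKM (1.57-fold, 1.43 to 1.72). All 3 were highest with hormone; Mrpl12 and Mrpl20 were close between control and NASH, and Mrpl55 was lower in NASH than in control.

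Of the next 5, Mrps34, a small-subunit protein without a bacterial counterpart, stood at 24.9, 25.8 and 38.5 FPKM. Mrps9, a conserved small-subunit protein, stood at 8.37, 8.07 and 12.1 FPKM. The large-subunit proteins were Mrpl28 (40.5, 41.6 and 61.5 FPKM), Mrpl24, whose bacterial counterpart lies by the exit of the nascent chain (48.2, 47.5 and 69.0 FPKM), and Mrpl11, whose counterpart forms the base of the stalk (9.41, 10.001 and 14.8 FPKM). Each was 1.45-fold to 1.5-fold higher with hormone than in NASH, and in each control lay near NASH. Mrps34 shares 2387 bases of its span with Mapk8ip3 on the other strand and 1003 with Nme3 on its own. Mrpl24 shares 1072 with Rrnad1 on the other strand.

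Lowest was Mrpl49, a large-subunit protein without a bacterial counterpart, at 14.2 FPKM in control, 17.0 in NASH and 12.1 with hormone (1.41-fold lower with hormone, 1.29 to 1.54). It overlaps Syvn1 on the other strand by 83 bases, and Syvn1 stood at 24.02, 19.8 and 12.1 FPKM. Mrpl16, with the values given above, was 1.31-fold lower (1.22 to 1.41). Mrpl39 stood at 13.4, 14.0 and 10.6 FPKM (1.32-fold lower), Mrps27, a protein with pentatricopeptide repeats, at 17.0, 14.7 and 11.2 FPKM (1.32-fold lower), and Mrpl9, a conserved large-subunit protein, at 30.0, 26.4 and 20.4 FPKM (1.30-fold lower). Mrps27 and Mrpl9 were highest in control and lowest with hormone, whereas Mrpl49 and Mrpl16 were highest in NASH. Mrps36, Mrpl14 and Mrpl36, with log2 ratios of -0.31, -0.23 and -0.22, completed the 8 lowest.

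**Figure D2:**
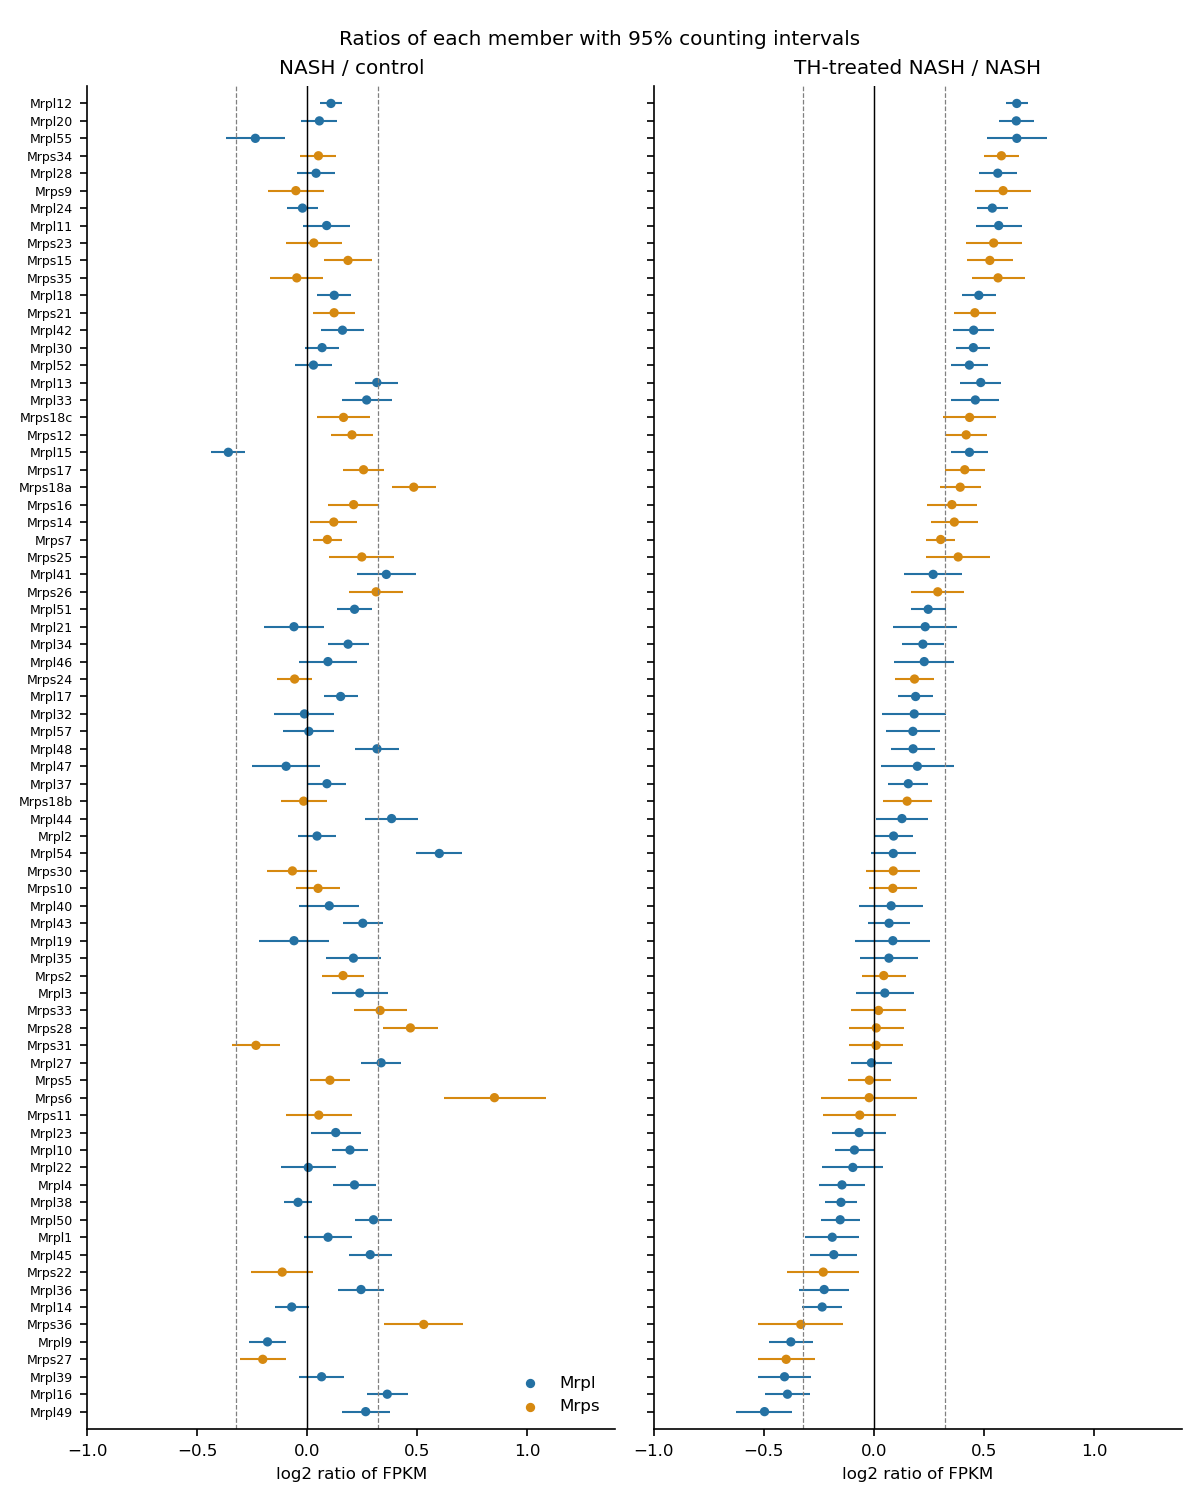
Log2 ratio of FPKM for each of the 76 members in NASH over control (left) and TH-treated NASH over NASH (right), ordered by the right panel's log2(FPKM + 1) difference; points are ratios of 2 libraries, bars are 95% counting intervals, and dashed lines mark 25% higher and 20% lower. On the right Mrpl12, Mrpl20 and Mrpl55 lead at 1.57-fold and Mrpl49 is lowest; on the left Mrps6 is highest at 1.80-fold, and the position of the whole left panel against 0 depends on the scaling, the median being 0.11 as deposited and -0.10 with median-of-ratios scaling.

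TH-treated NASH was also set against control. The members' share of fragments was 1.26 times that in control (1.253 to 1.273), and their median log2 ratio was 0.32, beside 0.11 for all protein-coding genes. With median-of-ratios and TMM scaling the member median was 0.14 and 0.13, and that of all genes -0.03 and -0.04. By 25% or more, 36 members (47.4%) were higher, against 31% of protein-coding genes, and 2 (2.63%) were at least 20% lower, against 14.6%. These counts were 23 and 8 with TMM scaling, where 20.1% of genes were higher and 24.3% lower, and 16 and 13 after centring on genes of similar length, where the median was 0.04. At 1.5-fold, 16 members (21.1%) were higher, against 14.9%, and none was lower, against 6.18%. Mrps18a led this comparison at 12.3 FPKM in control, 17.2 in NASH and 22.6 with hormone (1.84-fold over control, 1.71 to 1.97), with NASH between the other libraries and apart from both. On the other strand Rsph9 shares 6876 bases with it and stood at 0.474, 0.484 and 1.05 FPKM. Mrps18a is one of 3 mammalian relatives of the bacterial small-subunit protein S18, but it sits in the large subunit. Its relatives in the small subunit were Mrps18c, at 25.3, 28.3 and 38.3 FPKM, and Mrps18b, at 27.7, 27.4 and 30.4 FPKM. The 3 relatives thus differed, with Mrps18c 1.52-fold above control by FPKM (0.58 on the log2 scale) and Mrps18b at a log2 ratio of 0.13. Mrps30, another Mrps symbol that sits in the large subunit, stood nearly level at 16.2, 15.5 and 16.5 FPKM.

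The other 15 members past 1.5-fold over control were Mrpl12, Mrps6, Mrpl13, Mrpl20, Mrps15, Mrpl54, Mrpl33, Mrps17, Mrps34, Mrps12, Mrpl41, Mrpl11, Mrpl42, Mrpl28 and Mrpl18, with folds from 1.52 to 1.78. Mrps12, the counterpart of the bacterial protein at the decoding centre, stood at 36.6, 42.1 and 56.3 FPKM. Mrpl13 stood at 4.98, 6.20 and 8.69 FPKM, Mrps15 at 24.6, 27.9 and 40.2 FPKM, and Mrps17 at 15.1, 18.0 and 24.01 FPKM, each in the order control, NASH, TH-treated NASH as deposited. Mrpl33 had the same order at 8.36, 10.1 and 13.9 FPKM, and it overlaps Bre on its own strand for 4289 bases. On the other strand its span shares 73189 bases with Rbks, which stood at 9.30, 8.04 and 9.25 FPKM. The 2 members lower than control were Mrps27 (1.52-fold by FPKM, 1.39 to 1.65, and -0.56 on the log2(FPKM + 1) scale, short of 1.5-fold there) and Mrpl9 (1.47-fold, 1.38 to 1.57), and Mrpl39, Mrpl14, Mrps22, Mrpl49, Mrps31 and Mrpl38 followed with log2 ratios of -0.31 to -0.19. As deposited, 42 of 76 members (55.3%) stood in the order control, NASH, TH-treated NASH from low to high, against 29.1% of protein-coding genes. That count depended on the scaling, being 19 (25%, against 17.4% of genes) with TMM and 16 (21.1%, against 17.2%) with median-of-ratios scaling. The 3 comparisons share their libraries pairwise, so their values are given side by side.

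The 2 subunits and the 2 evolutionary classes were then described apart. In TH-treated NASH against NASH the median log2 ratio was 0.27 for 26 small-subunit members and 0.15 for 49 large-subunit members, Mrps18a and Mrps30 counted with the large subunit and Mrps36 with neither. By the same thresholds, 11 small-subunit members (42.3%) were higher and 1 (3.85%) lower, and 14 large-subunit members (28.6%) were higher and 4 (8.16%) lower, against 17.6% and 21.5% of protein-coding genes. Against control, TH-treated NASH had medians of 0.45 and 0.24, with 17 small-subunit (65.4%) and 19 large-subunit members (38.8%) higher, against 31% of genes, and 1 of each lower. In NASH against control the medians were 0.10 and 0.11, and both turned negative with TMM or median-of-ratios scaling. The 16 small-subunit members with a bacterial counterpart had the highest class median with hormone, 0.32 against NASH, and 8 of them were higher and none lower. The other class medians in that comparison were 0.20 for 10 small-subunit members without a bacterial counterpart, 0.17 for 30 large-subunit members with one and 0.12 for 19 without. The classes overlapped, as the quartiles of the large-subunit ratios were -0.09 and 0.40 and those of the small-subunit ratios 0.01 and 0.42.

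Promoter sequences are shown for 5 members to set the letters beside ratios that differ. The RefSeq table of build GRCm38.p6 had 74 starts for 68 of the 77 members, each with 250 bases before and 50 after the start. Searched on both strands were the core of the NRF1 site (GCGCATGC), the ETS core that GABP binds (CCGGAAG), a YY1 core (AAGATGGC), the E-box (CACGTG) and the nuclear receptor half-site (AGGTCA). NRF1, GABP and YY1 are known activators of nuclear genes for mitochondrial proteins, and thyroid hormone receptors bind pairs of the half-site. The ETS core was in 33.8% of member promoters, in 17.4% of promoters of genes at 1 FPKM and in 8.86% of all 32851 promoters. The YY1 core was in 16.2%, 4.48% and 2.75%, and the NRF1 core in 10.8%, 5.20% and 2.71%. The E-box was in 9.46%, 10.04% and 7.15%, and the half-site in 14.9%, 13.2% and 16.3%, so these 2 were about as frequent among members as among other promoters. A match is a description and not a binding site. The 24 members at 1 FPKM with an ETS core had a median log2 ratio of 0.22 in TH-treated NASH against NASH, and the 43 without had 0.09. The 8 members with an NRF1 core had 0.03 and the 59 without had 0.16. The medians with and without were 0.16 and 0.16 for the YY1 core, 0.15 and 0.16 for the E-box and 0.12 and 0.18 for the half-site.

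The 150 bases before the start are printed 5' to 3', with motif matches in capitals, for Mrps18a (chr17:46110854-46111003, plus strand), the member highest over control with hormone, and for Mrpl12 (chr11:120484487-120484636, plus strand), the highest over NASH. Mrpl9 (chr3:94443186-94443335, plus strand) was among the lowest with hormone. Mrpl22 (chr11:58171514-58171663, plus strand) and Mrpl32 (chr13:14613038-14613187, minus strand) hold several cores. RefSeq's start can lie a few bases inside the span that the deposited table gives.

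Mrps18a: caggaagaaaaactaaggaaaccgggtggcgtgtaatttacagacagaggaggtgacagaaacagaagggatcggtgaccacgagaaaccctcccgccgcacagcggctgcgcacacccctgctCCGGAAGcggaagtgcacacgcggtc

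Mrpl12: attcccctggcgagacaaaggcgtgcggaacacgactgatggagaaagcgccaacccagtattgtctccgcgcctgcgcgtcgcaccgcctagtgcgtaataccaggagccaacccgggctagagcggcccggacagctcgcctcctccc

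Mrpl9: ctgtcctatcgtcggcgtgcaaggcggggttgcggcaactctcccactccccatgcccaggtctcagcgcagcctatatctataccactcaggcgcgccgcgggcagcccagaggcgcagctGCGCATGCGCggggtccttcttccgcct

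Mrpl22: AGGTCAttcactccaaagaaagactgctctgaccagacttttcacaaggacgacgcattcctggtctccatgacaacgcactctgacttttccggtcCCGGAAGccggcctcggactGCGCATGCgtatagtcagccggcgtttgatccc

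Mrpl32: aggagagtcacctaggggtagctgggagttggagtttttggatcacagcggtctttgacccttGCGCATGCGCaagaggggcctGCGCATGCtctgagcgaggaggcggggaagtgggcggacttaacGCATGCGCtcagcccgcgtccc

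The Mrps18a stretch holds an ETS core at positions -26 to -20 from the start, and the printed stretch of Mrpl12 holds none of the 5 motifs. Outside the printed stretches, the searched bases hold a half-site in Mrpl12 at 33 to 38 and a YY1 core in Mrps18a at 11 to 18. Also outside lie a half-site in Mrpl22 at -183 to -178 and a YY1 core in Mrpl32 at -242 to -235. In Mrpl9 the capitals are NRF1 cores on both strands that overlap, the first at -28 to -21. In Mrpl22 they are a half-site at -150 to -145, an ETS core at -53 to -47 and an NRF1 core at -33 to -26. In Mrpl32 they are 4 NRF1 cores, of which those at -87 to -80 and -85 to -78 overlap. Mrpl22 stood at 29.0 FPKM in control, 29.1 in NASH and 27.2 with hormone, and Mrpl32 at 22.8, 22.6 and 25.7 FPKM. Of these 2, Mrpl22 was lowest and Mrpl32 highest with hormone, each by less than 25%.

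Many members share a start region with a neighbour on the other strand. Within 1000 bases, 30 of 76 members (39.5%) had a protein-coding gene starting in the opposite direction, against 16.4% of protein-coding genes at 1 FPKM. Mrps11 and Mrpl46 are such a pair of members, with log2 ratios of -0.06 and 0.22 in TH-treated NASH against NASH. Their starts lie 412 bases from each other and their spans share 413 bases, so reads of the pair may not be separated. Mrpl49 starts 137 bases from Fau, which encodes a protein of the cytosolic ribosome, and the ratios of the 2 genes were -0.46 and 0.83. Mrps27 starts 108 bases from Ptcd2, a mitochondrial RNA-binding protein, with ratios of -0.37 and 0.28. Mrpl47 starts 157 bases from Ndufb5, a complex I subunit, with 0.16 and 0.48, and the spans of these genes share 158 bases. Mrps12 starts 148 bases from Sars2, the mitochondrial seryl-tRNA synthetase, with 0.41 and -0.02. Mrpl32 and the proteasome gene Psma2, 205 bases apart, had 0.18 and 0.15. The direction was thus shared in some pairs and opposite in others.

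Other ribosomal and respiratory gene sets were compared on the same scale. The 77 cytosolic ribosomal protein genes at 1 FPKM had a median log2 ratio of 0.81 in TH-treated NASH against NASH. Of these genes 75 (97.4%) were higher by 25% or more and none lower, against 17.6% and 21.5% of protein-coding genes. Their share of fragments was 1.87% in control, 1.71% in NASH and 2.98% with hormone. Such genes have many pseudogene copies that can share reads. The 36 nuclear complex I subunits, taken by their Nduf symbols alone, had a median of 0.36, with 20 higher (55.6%) and 1 lower (2.78%). They took 0.337%, 0.344% and 0.422% of fragments. The most abundant of them, Ndufa4, stood at 586, 620 and 654 FPKM and had a ratio of 0.08. The 12 protein-coding genes of the mitochondrial genome at 1 FPKM, the messages that the mitochondrial ribosome translates, had a median of 0.68. Of these, 10 were higher and none lower. The 12 genes took 4.50% of fragments in control, 4.96% in NASH and 6.72% with hormone, a ratio of 1.35 with hormone over NASH. Their largest ratios were 1.33 for mt-Co2, 1.29 for mt-Co3, 1.28 for mt-Atp6 and 1.11 for mt-Nd3, at 35.5 to 87.1 FPKM in NASH. The most abundant in NASH, mt-Co1, mt-Cytb, mt-Nd1 and mt-Nd2 (5445 to 12781 FPKM), had 0.31, 0.49, 0.72 and 0.31. The least abundant, mt-Nd4l, had 0.65. It stood at 13.3 FPKM in NASH. Apart from mt-Nd4l and the genes with the largest ratios, all genes of this set stood at 431 FPKM or more in NASH. How reads that match several places were counted is not stated, and its part in the low levels and their ratios was not tested. The set medians include these low genes. The members' median of 0.16 was the smallest of these 4 sets, and each set's median stayed above 0 under every scaling. After centring on genes of similar length, the medians were 0.09 for the members, 0.17 for complex I and 0.69 for the cytosolic set. In TH-treated NASH against control the centred medians of the same 3 sets were 0.04, -0.06 and 0.32. In NASH against control the medians as deposited were -0.12, 0.01 and -0.01 for the 3 other sets, beside 0.11 for the members. Those of complex I, the mitochondrial genome and the members changed sign between scalings. The fragment share of the mitochondrial genome set was 1.10 times that of control in NASH, though its median was -0.01.

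**Figure D3:**
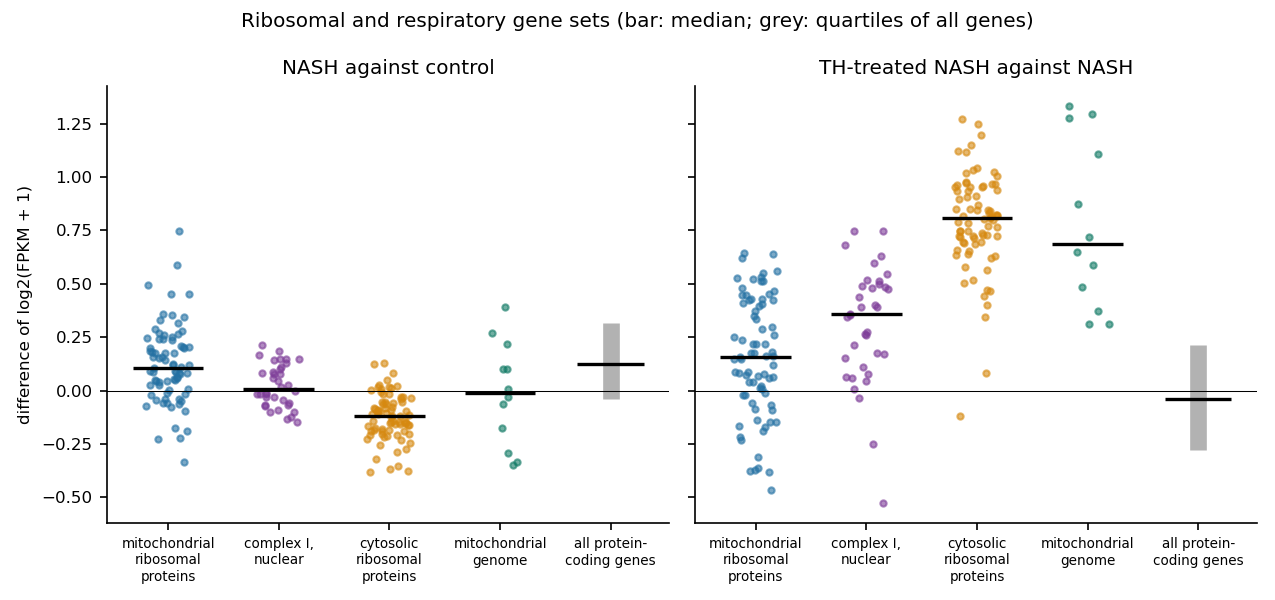
Difference of log2(FPKM + 1) for single genes of 4 sets in NASH against control (left) and TH-treated NASH against NASH (right); points are genes, black bars set medians, and the grey bar spans the quartiles of all protein-coding genes. On the right the members' median of 0.16 lies below those of complex I (0.36), the mitochondrial genome (0.68) and cytosolic ribosomal proteins (0.81); on the left the signs of all but the cytosolic set depend on the scaling.

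Other genes of mitochondrial translation were described by the same measures. The 6 ribosome subunits with other symbols had a median log2 ratio of 0.18 in TH-treated NASH against NASH, close to the 0.16 of the members. Among them Ict1, also called Mrpl58, which frees stalled ribosomes, stood at 10.5 FPKM in control, 10.2 in NASH and 14.1 with hormone. Chchd1 stood at 42.0, 45.3 and 52.3 FPKM, Aurkaip1 at 48.6, 53.3 and 60.8 FPKM, and the GTP-binding subunit Dap3 at 7.60, 8.79 and 10.1 FPKM, each highest with hormone. The 25 assembly and rRNA-modifying factors had a median of 0.10, with 1 higher (4%, against 17.6% of protein-coding genes) and 3 lower (12%, against 21.5%). The higher one was Trub2 (2.76, 3.21 and 4.32 FPKM). Lowest were Rpusd4 (3.78, 4.37 and 2.98 FPKM) and Noa1 (4.28, 4.85 and 3.46 FPKM).

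The 16 translation factors at 1 FPKM had a median of -0.16 with hormone, 2 higher (12.5%, against 17.6% of protein-coding genes) and 3 lower (18.8%, against 21.5%), shares near the background. Gfm1, the elongation factor that moves the ribosome along the message, stood at 18.9 FPKM in control, 23.3 in NASH and 13.8 with hormone. Taco1, an activator of translation of the Cox1 message, stood at 9.92, 10.6 and 6.32 FPKM, and Metap1d, a methionine aminopeptidase, at 13.0, 13.1 and 18.4 FPKM. Hormone went with the lowest level of Gfm1 and Taco1 and with the highest level of Metap1d. The 19 genes listed with the aminoacyl-tRNA synthetases had a median of -0.17, 2 higher (10.5%) and 5 lower (26.3%), also near those background shares. Nars2, which charges asparagine tRNA, stood at 4.72, 4.42 and 2.05 FPKM. Pet112, also called Gatb, stood at 9.88, 15.6 and 8.62 FPKM. It is in this list but encodes an amidotransferase subunit and not a synthetase. Lars2, which charges leucine tRNA, went the other way at 22.2, 21.5 and 33.8 FPKM. The medians of both lists were below 0 and that of the members above 0 under every scaling.

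The 9 genes of mitochondrial DNA transcription and replication had a median of -0.00. None passed the threshold either way, where 17.6% of protein-coding genes were higher and 21.5% lower. Of these, Polg, the DNA polymerase, stood at 9.36, 10.3 and 12.9 FPKM and Top1mt, a topoisomerase, at 9.57, 12.7 and 10.5 FPKM. The 9 regulators of mitochondrial biogenesis had a median of 0.08, with 2 higher (22.2%) and 1 lower (11.1%), against the same background shares. Myc, which activates ribosome genes, stood at 2.58, 2.30 and 4.48 FPKM and the coactivator Ppargc1a at 1.53, 1.33 and 2.38 FPKM, both highest with hormone. Yy1 stood at 16.3, 15.4 and 10.9 FPKM, lowest with hormone. In NASH against control 1 of the 9 regulators passed the threshold (11.1% lower, against 5.66% of protein-coding genes). It was Ppargc1b, a coactivator, which was lower in NASH, at 2.40, 1.12 and 1.24 FPKM. In that comparison the largest ratios of the other lists were those of Ftsj2 (0.46 on the log2 scale) and Mettl15 (0.46) among assembly factors. Among translation factors they were those of Tsfm (0.48) and Mtfmt (0.43), and in the synthetase list that of Pet112 (0.61), which is not a synthetase.

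**Figure D4:**
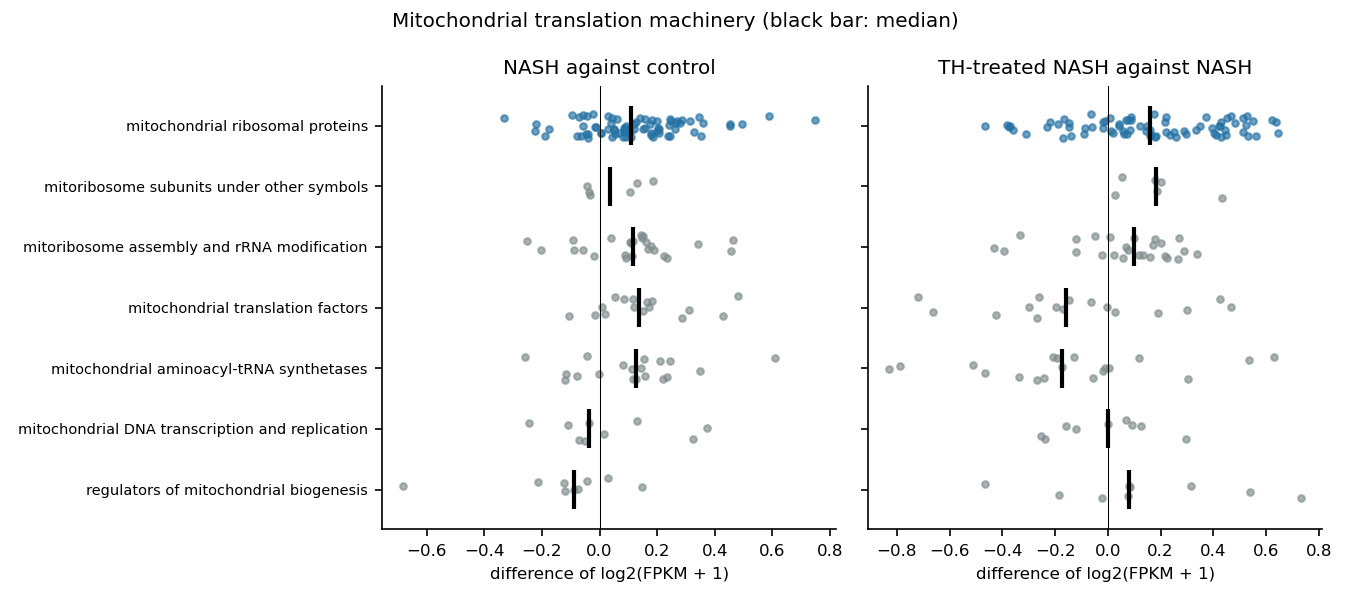
Difference of log2(FPKM + 1) for the 76 members (blue) and for the genes of 6 other lists (grey) in NASH against control and TH-treated NASH against NASH; points are genes and black bars medians. In the right panel the members (0.16) and the subunits under other symbols (0.18) lie right of 0, and the translation factors (-0.16) and synthetases (-0.17) left of it; in the left panel the sign of the member median depends on the scaling.

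Members are short genes, with a median length of 1407.5 bases against 3000 for all protein-coding genes, and ratios moved with gene length in these libraries. Over all 10953 protein-coding genes Spearman's rho between length and the log2 ratio of TH-treated NASH against NASH was -0.18, and over the 76 members it was -0.02, values across genes that share the same 2 libraries. Among genes under 1000 bases, 22 members had a median of 0.20 and the other protein-coding genes 0.24. From 1000 to under 2000 bases, 26 members had 0.09 and others 0.04. From 2000 to under 4000 bases, 19 members had 0.16 and others -0.04, and at 4000 bases or more, 9 members had 0.25 and others -0.11. The members thus stood near other short genes and above other long ones. After centring each ratio on protein-coding genes of similar length, the member median was 0.09, with 20 higher and 8 lower by those thresholds, where 18.7% of protein-coding genes were higher and 18.7% lower. In TH-treated NASH against control the centred median was 0.04, with 16 higher and 13 lower, where 20.9% of genes were higher and 20.3% lower, so the members were near the background. In NASH against control it was -0.04. What part RNA length or quality had in the ratios was not tested.

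**Figure D5:**
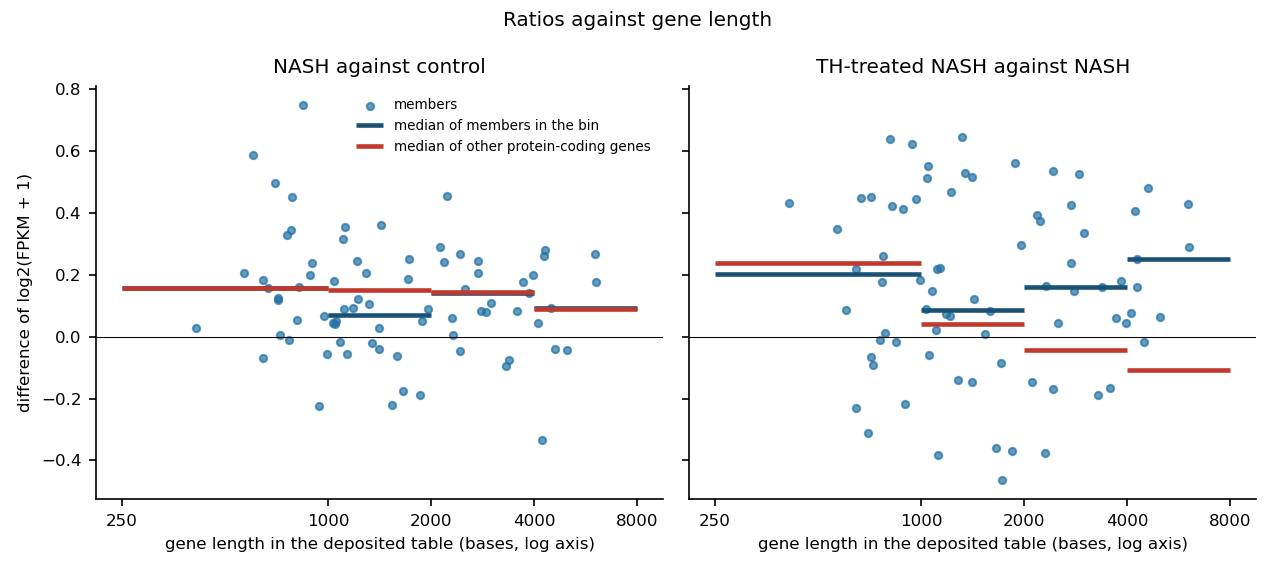
Difference of log2(FPKM + 1) against gene length (log axis) for the 76 members (points), with bars at the median of members (dark blue) and of other protein-coding genes (red) in 4 length bins; the first and last bins are open-ended. In TH-treated NASH against NASH the red bars step down from 0.24 to -0.11 while the blue bars run from 0.20 to 0.25; in NASH against control the members' sign depends on the scaling.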

How the data were processed

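Liver polyA RNA was sequenced, 1 library per group. The deposited values are FPKM per gene made by the authors, with gene length, position and type. TopHat2 and HTSeq were used per the submitters' processing notes. The sources used here do not give tool versions or settings, strand mode or genome build. Of the 77 member IDs, 76 are in GENCODE M21, 49 of these with the same start and end. FPKM multiplied by length came in whole steps, so 100% of values gave whole fragments within 0.01, and these gave the depths and the exact 95% conditional binomial (Clopper-Pearson) intervals of ratios. No count model was run.

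Log2 ratios were differences of log2(FPKM + 1) over genes at 1 FPKM or more in any library, counted at 25% higher (or the inverse) and at 1.5-fold. The members, gene lists and rules were chosen with earlier results of these data known. Named were, per comparison, the 8 highest and 8 lowest ratios, the 8 most and 4 least abundant members, those past 1.5-fold, those below 1 FPKM, those outside their named subunit, and up to 3 genes of each other list. The head-to-head pairs and promoters shown were picked after values were seen. List symbols matched by symbol (209) or synonym (8). TMM and median-of-ratios scaling were computed in Python 3.11.15 with NumPy 2.4.6, SciPy 1.17.1 and pandas 2.3.3. The steps were tested on simulated data. Members overlapping another gene (32 of 77, 28 on the opposite strand and 7 on the same) may share reads.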

Additional observations from a re-analysis of the deposited data

How the results depend on the processing

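Below, counts are of members at least 25% higher or 20% lower unless given otherwise, out of 76 members except where 45 is given. A percentage in brackets is the share of protein-coding genes past the same fold in the same direction at that setting. A pair of settings, leaving out members that overlap another gene and TMM scaling together with length centring, were chosen after seeing the data. Where a value moved, the cause was not tested, other than fewer members being counted when overlapping ones were left out and fewer calls at the higher fold.

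For NASH against control, the member median of 0.11 turned to -0.098 with median-of-ratios scaling, -0.061 with TMM scaling, -0.036 centred by gene length and -0.051 with both of the latter. The 9 higher members became 5 with a pseudocount of 5 FPKM (10.7%) and 2 with median-of-ratios scaling (14.1%). They became 3 with TMM scaling (15.5%), with length centring (15.6%) or with both (16.3%), and 2 at 1.5-fold (10.3%). Of the 45 members that overlap no other gene, 4 were higher, a share of 8.89% against 24.8% of protein-coding genes. The 1 lower member became 0 with a pseudocount of 5 FPKM, with TPM scaling and at 1.5-fold, and 5 with median-of-ratios scaling, TMM scaling, length centring, or the last 2 together.

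For TH-treated NASH against NASH, the 25 higher members became 3 at 1.5-fold (7.29%). The 5 lower members became 2 with a pseudocount of 5 FPKM (11.1%) and 0 at 1.5-fold (8.51%). They became 8 with TPM scaling (28.8%), with length centring (18.7%) or with TMM and length centring (18.6%). Of the 45 members that overlap no other gene, 3 were lower, a share of 6.67% against 21.5% of protein-coding genes. Its median kept its sign in each setting tried.

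For TH-treated NASH against control, the median of 0.32 became 0.14 with median-of-ratios scaling, 0.13 with TMM scaling, 0.039 with length centring and 0.026 with TMM and length centring. The 36 higher members became 23 with TMM scaling (20.1%), 16 with length centring (20.9%), 16 at 1.5-fold (14.9%) and 13 with TMM and length centring (21.3%). Of the 45 members that overlap no other gene, 22 were higher, a share of 48.9% against 31% of protein-coding genes. The 2 lower members became 4 with a pseudocount of 0.1 FPKM (17.5%) or without the 50 most abundant genes in the scaling (15.8%). They became 5 with TPM scaling (18.3%) and 8 with median-of-ratios (23.5%) or TMM scaling (24.3%). They became 13 with length centring alone (20.3%) or with TMM (20.6%), and 0 at 1.5-fold (6.18%). Of the 45 members that overlap no other gene, 1 was lower, a share of 2.22% against 14.6% of protein-coding genes.

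The other 62 values under alternatives kept their sign or lay within 1.5 times the reported count, though some moved. The median of TH-treated NASH against NASH went from 0.16 to 0.062 with TPM scaling and 0.091 with length centring. The 36 higher members of TH-treated NASH against control were 25 with median-of-ratios scaling (20.8%). The scalings of the order of the 3 libraries were also chosen after seeing the data. No paired analysis was possible because each group has 1 library, and leaving out a replicate was not possible for the same reason. Counting error is small at these depths, with a median half-width of 0.10 to 0.11 on the log2 scale for a member's ratio, and differences between animals cannot be measured here.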
